A study of Mus musculus with 12 samples.

Results

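Out of 18193 genes measured in the developing mouse neural tube, 21 met a rule of minimum size and level for a maximum at gestation day 9.0. The neural tube gives rise to the brain and the spinal cord. Its RNA was taken from ICR (CD-1) mouse embryos, an outbred stock, with no drug treatment or engineered allele in the labels, at gestation days 8.5, 9.0 and 9.5 (GD8.5, GD9.0 and GD9.5, counted from the morning of the vaginal plug as day 0). The labels give 4 biological replicates per stage and do not say whether each is a litter, a pool or 1 embryo, so p-values measure the spread between these samples. All stages share the same dissection, in which embryos were taken out of the decidua and the neural tube was then cut out, and a stated aim was to tell constant from changing transcripts.

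For each gene the probe set with the highest mean was used, a probe set being a group of array probes for 1 transcript. A gene was counted here when its mean log2 level at GD9.0 was at least 0.5 above GD8.5, at least 0.3 above GD9.5 and at least 2.5 in itself, and when every GD9.0 array lay above every array of the other stages. Levels are log2 signals, so a difference of 1 is a doubling. The deposited values of GD8.5 replicates 1 and 2 were on another, linear scale and were left out of this choice, which left 2 arrays of GD8.5 and 4 of each later stage. The genes were thus chosen by their measured values: the differences between GD9.0 and the other 2 stages are given as a description, with no test.

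Some of the genes that rose into GD9.0 came down again. Of 403 genes that rose by at least 0.5 and had a GD9.0 level of at least 2.5, 24 (5.96%) lost at least 0.3 by GD9.5, and 3 of these 24 had overlapping arrays. The share of all genes with a fall of that size is not given, so the 5.96% has no like background. Over all genes, the GD9.0 arrays lay above all other arrays for 618 (3.4%) and below them for 623 (3.42%). The mirror-image rule, with the lowest level at GD9.0, took 61 genes. Beside counts of list genes, the share of all genes called by limma with Benjamini-Hochberg adjustment at 0.05 is the background: from GD8.5 to GD9.0 6.78% of all genes rose and 6.74% fell, and from GD9.0 to GD9.5 14.1% rose and 10.3% fell. No such count is given for the 21 genes, since the same differences chose them. The median rise of the 21 genes was 0.64 and the median fall 0.60, sizes that follow in part from the thresholds of the rule. Over all genes the medians were -0.0019 and 0.0077.

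**Figure D1:**
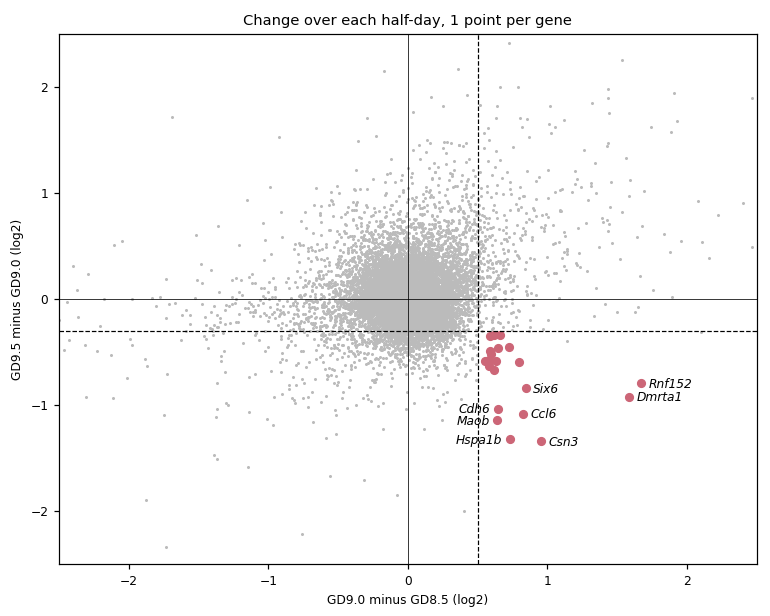
Change from GD8.5 to GD9.0 (horizontal axis, log2) against change from GD9.0 to GD9.5 (vertical axis, log2) for each gene, 1 point per gene; 61 genes lie outside the axes. The 21 genes are in red, dashed lines mark the size thresholds of 0.5 and -0.3, and Rnf152 and Dmrta1 stand furthest to the right at 1.67 and 1.59.

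Between GD8.5 and GD9.5 the mouse neural folds close into a tube, the optic vesicles grow out of the forebrain, and the first neurons leave the cycle. Transcription factors of the eye field and the forebrain are switched on in restricted patches during these steps. In bulk samples, fewer cells of a type and less RNA per cell cannot be told apart. The 21 genes hold 2 transcription factors of the anterior neural plate, a chaperone of the heat shock response, a cadherin, a semaphorin, several enzymes and transporters, and a Y-linked gene. Of the 21, 19 are protein coding and 2, AI506816 and A930013F10Rik, are listed as long noncoding RNA.

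Promoter sequence was available for 17 of the 21 genes, from RefSeq on GRCm38.p6, as 300-base windows that run from 250 bases before to 50 after the annotated start. The windows of the 2 anterior transcription factors and of the heat shock gene are shown as examples, as developmental regulators of the forebrain and eye and as a gene with a well-known inducible promoter. Capitals mark GGGCGG (the GC box bound by Sp1) and CCAAT (the CCAAT box) on either strand, and in Hspa1b also GAANNTTC, the paired core of a heat shock element.
Dmrta1, chr4:89687948-89688247, plus strand: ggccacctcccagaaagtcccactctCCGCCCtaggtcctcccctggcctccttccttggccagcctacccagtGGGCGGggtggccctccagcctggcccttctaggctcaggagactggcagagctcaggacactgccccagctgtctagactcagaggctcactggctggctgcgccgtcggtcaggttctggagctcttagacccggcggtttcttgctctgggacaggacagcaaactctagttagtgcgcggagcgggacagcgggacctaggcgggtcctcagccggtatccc
Six6, chr12:72939632-72939931, plus strand: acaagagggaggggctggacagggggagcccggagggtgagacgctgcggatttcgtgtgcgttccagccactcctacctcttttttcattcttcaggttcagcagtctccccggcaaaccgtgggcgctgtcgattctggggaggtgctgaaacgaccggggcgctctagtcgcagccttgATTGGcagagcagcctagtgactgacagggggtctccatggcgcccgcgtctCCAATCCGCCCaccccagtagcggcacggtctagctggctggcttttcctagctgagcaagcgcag
Hspa1b, chr17:34959189-34959488, minus strand: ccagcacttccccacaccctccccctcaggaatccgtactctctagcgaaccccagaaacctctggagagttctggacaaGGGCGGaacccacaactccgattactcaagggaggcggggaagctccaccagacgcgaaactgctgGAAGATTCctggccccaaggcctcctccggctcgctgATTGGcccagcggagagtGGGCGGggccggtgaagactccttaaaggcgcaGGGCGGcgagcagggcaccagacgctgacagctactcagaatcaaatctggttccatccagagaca
In the printed strand the complement of GGGCGG reads CCGCCC and that of CCAAT reads ATTGG. In Six6 a CCAAT match and a GGGCGG match lie directly side by side.

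None of the motifs searched was in all 17 windows. GGGCGG stood in 12 of 17 (70.6%), against 54.1% of the 14368 array genes with a window, and CCAAT stood in 7 (41.2%) against 38.2%. TATAAA was in 0 of 17, against 9.86%. CACGTG was in 2 windows against 9.04% of array genes, CAGCTG in 2 against 16.1%, ACGTG in 4 against 23.2% and CTTTGA in 1 against 13.7%, all read on both strands, with each CACGTG also counted as ACGTG. TGACGTCA and TGANTCA were in 0 windows each, against 2.69% and 6.29%. GAANNTTC was found in 1 window, that of Hspa1b, against 6.31%, and the other arrangement, TTCNNGAA, in 1, that of Mrpl39, against 7.39%; these 2 motifs were added after Hspa1b was seen among the genes. The median number of CpG pairs was 20 against 17, and the median G or C content was 64.0% against 58.7%. These are descriptions of letters in a short window, and they say nothing on whether a factor binds there. No 2 of the genes were direct neighbours. The closest pair, Ccl6 and Taf15 on chromosome 11, had starts 114813 bases apart with 7 annotated genes between them. Chromosome 5 held 5 of the genes, with starts at least 11309100 bases apart.

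The anterior transcription factors come first. Dmrta1 encodes a DM-domain factor of the embryonic forebrain. Its level was 3.01 and 3.06 on the GD8.5 arrays, then 4.34, 4.69, 4.75 and 4.72 at GD9.0 and 3.60, 3.49, 3.62 and 4.11 at GD9.5. The 3 stages did not overlap, and GD9.5 replicate 4 came closest to GD9.0. The stage means were 3.04 ± 0.036 (SD, n = 2), 4.63 ± 0.19 (n = 4) and 3.70 ± 0.27 (n = 4), which is a 3.00-fold rise followed by a 1.89-fold fall.

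Six6 encodes a homeodomain factor of the eye field, the optic vesicle and the ventral forebrain. It stood at 2.87 and 2.71 at GD8.5, at 3.80, 3.60, 3.63 and 3.51 at GD9.0 and at 2.77, 2.89, 2.87 and 2.66 at GD9.5. The GD8.5 and GD9.5 arrays overlapped, and the rise and the fall were the same size, 1.79-fold each. The means were 2.79 ± 0.11 (SD, n = 2), 3.64 ± 0.12 (n = 4) and 2.80 ± 0.11 (n = 4).

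The other anterior factors varied in profile. Of 34 measured forebrain, midbrain and eye factors, 15 rose and 3 fell from GD8.5 to GD9.0 by limma with Benjamini-Hochberg adjustment, where 6.78% and 6.74% of all genes did, and 13 rose and 8 fell from GD9.0 to GD9.5, where 14.1% and 10.3% did. Dmrta1 and Six6, chosen for their rise and fall, count among the 15 that rose and the 8 that then fell. The list's median change was 0.30 and then 0.12. Of the 34, 8 had their highest mean at GD9.0 (26.9% of all genes do), Dmrta1 and Six6 among them. The following were chosen after their values were seen. Dmrta2, a near relative of Dmrta1, rose in both intervals, from 4.48 to 6.16 and 6.85. Six3, a relative of Six6 in the same territory, fell in both, from 5.95 to 5.58 and 5.18. Otx2, a forebrain and midbrain factor, had every GD9.0 array above the others, at means of 7.70, 8.22 and 7.96, but its fall of 0.25 was below the size threshold. Rax, another eye field factor, stood at 2.91, 2.79 and 2.21.

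**Figure D2:**
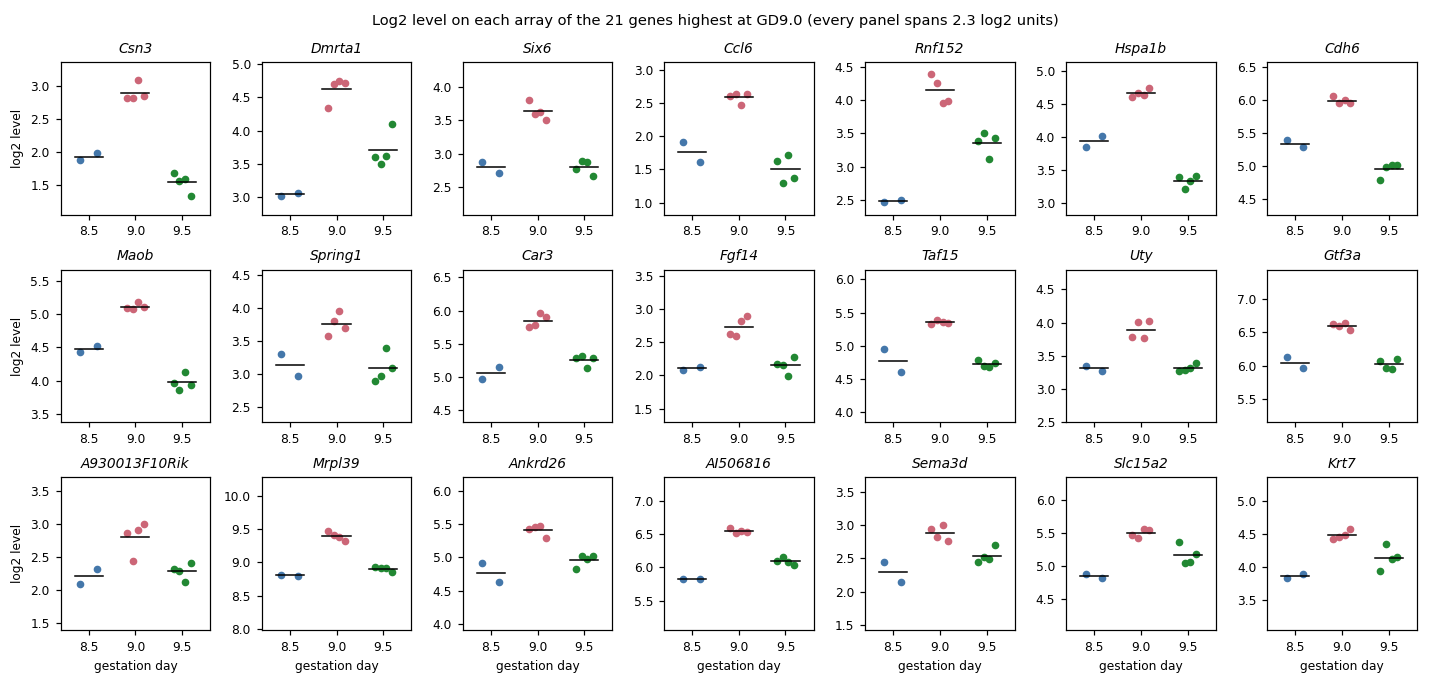
Log2 level (vertical axis) on every log2 array of GD8.5, GD9.0 and GD9.5 (horizontal axis) for each of the 21 genes; points are arrays, n = 2, 4 and 4, and bars are stage means. Each panel spans the same height in log2 units, so the small steps of Krt7 and Slc15a2 can be set against the large ones of Rnf152 and Dmrta1, and in every panel the GD9.0 points lie above the rest.

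The other nuclear proteins moved less. Taf15, an RNA-binding protein of the FET family that associates with the general transcription machinery, was at 4.94 and 4.60 at GD8.5, at 5.32, 5.39, 5.35 and 5.34 at GD9.0 and at 4.78, 4.69, 4.68 and 4.74 at GD9.5. The 2 GD8.5 arrays lay further apart than the 4 arrays of either later stage. The rise was 1.49-fold and the fall 1.55-fold. Gtf3a, which encodes TFIIIA, the factor that starts 5S ribosomal RNA transcription, ranged from 5.96 to 6.13 at GD8.5, from 6.53 to 6.65 at GD9.0 and from 5.94 to 6.11 at GD9.5. Its outer stages overlapped, and its rise of 0.56 was the smallest of the 21.

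Uty, a Y-linked relative of the histone demethylase Kdm6a, was at 3.35 and 3.27 at GD8.5, at 3.78, 4.01, 3.76 and 4.03 at GD9.0 and at 3.28, 3.28, 3.31 and 3.40 at GD9.5. The rise and the fall were 0.58 each on the log2 scale, and the arrays of the outer stages overlapped. The Y-linked genes Eif2s3y and Kdm5d also had their highest means at GD9.0. Over the 3 stages these were 4.81, 4.96 and 4.53 for Eif2s3y and 3.56, 3.99 and 3.80 for Kdm5d. The GD9.0 and GD9.5 arrays of Kdm5d overlapped, and every GD9.0 array of Eif2s3y lay above its other arrays. Xist, the noncoding RNA that silences an X chromosome in females, had its lowest mean at GD9.0, with 8.87, 8.61 and 9.16. The labels give no sex for the embryos, and the part of the sex mix in the level of Uty was not tested.

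Among the proteins of the cell surface and outside the cell, Cdh6 encodes cadherin 6, an adhesion molecule of neural folds, early neural crest and hindbrain. Its arrays read 5.39 and 5.29 at GD8.5, 6.05, 5.96, 5.99 and 5.95 at GD9.0 and 4.79, 4.99, 5.02 and 5.02 at GD9.5. The stages did not overlap, and GD9.5 lay below GD8.5. The means were 5.34 ± 0.070 (SD, n = 2), 5.99 ± 0.047 (n = 4) and 4.95 ± 0.11 (n = 4). Of 40 measured matrix and adhesion genes, 12 rose and 14 fell in the first interval and 13 rose and 7 fell in the second, where 6.78% of all genes rose and 6.74% fell and then 14.1% rose and 10.3% fell. Cdh6 was the only one of them that met the rule. Chosen for its rise and fall, it counts among the 12 that rose and the 7 that then fell. The list's median change was -0.048 and then 0.090.

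Sema3d encodes a secreted class 3 semaphorin, a repellent guidance cue for axons and migrating cells. It was at 2.45 and 2.14 at GD8.5, at 2.95, 2.82, 3.00 and 2.76 at GD9.0 and at 2.44, 2.52, 2.49 and 2.70 at GD9.5. The lowest GD9.0 array was only 0.057 above the highest of the others, a GD9.5 array. Of 41 Eph, ephrin and guidance genes 10 rose and 8 fell in the first interval, and 12 rose and 6 fell in the second, where 6.78% of all genes rose and 6.74% fell and then 14.1% rose and 10.3% fell. Sema3d, chosen for its rise and fall, counts among the 10 that rose and the 6 that then fell. The list's median change was -0.14 and then -0.022. A second semaphorin of the same class, Sema3c, rose from 4.18 to 5.19 and was at 4.99 at GD9.5.

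The milk protein gene Csn3 (kappa-casein) and the chemokine gene Ccl6 also encode secreted proteins. The level of Csn3 was 1.88 and 1.98 at GD8.5, at 2.81, 2.81, 3.08 and 2.84 at GD9.0 and at 1.68, 1.57, 1.59 and 1.33 at GD9.5. The stages did not overlap, and its fall of 1.34 was the largest of the 21. Ccl6 was at 1.92 and 1.60 at GD8.5, at 2.601, 2.63, 2.47 and 2.64 at GD9.0 and at 1.63, 1.30, 1.71 and 1.38 at GD9.5, so that its outer stages overlapped. As a measure of background, 95% of 38 olfactory receptor genes had a mean level under 1.43, close to the GD9.5 means of 1.54 ± 0.15 (SD, n = 4) for Csn3 and 1.503 ± 0.20 (n = 4) for Ccl6. A fold against a level so near the background can understate a change.

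Ccl6 is known from myeloid cells. The macrophage and megakaryocyte list had 9 of 16 measured genes above the background at GD9.0. Of all genes, 50.6% had a GD9.0 level of at least 2.5, which is a higher bar than this background. The list's mean level ranged from 1.57 to 1.66 at GD8.5, from 1.55 to 1.61 at GD9.0 and from 1.94 to 2.00 at GD9.5. Of the 16 genes, 3 had their highest mean at GD9.0, where 26.9% of all genes do. By limma with Benjamini-Hochberg adjustment, 1 of the 16 rose and 1 fell in the first interval, where 6.78% and 6.74% of all genes did. In the second, 7 rose and 1 fell, where 14.1% and 10.3% did. The list's median change was -0.062 and then 0.097. Csf1r, the receptor of macrophage growth, was picked after its values were seen and had means of 2.63, 1.86 and 2.37. Their part in the profile of Ccl6 was not tested. Fgf14, an intracellular FGF-like protein that binds sodium channels of neurons, was at 2.08 and 2.13, then at 2.63, 2.598, 2.82 and 2.902, then at 2.17, 2.16, 1.99 and 2.28. Its outer stages overlapped, and the rise and the fall were 0.63 and 0.59 on the log2 scale.

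Krt7, a keratin of simple epithelia, ranged from 3.83 to 3.89 at GD8.5, from 4.42 to 4.57 at GD9.0 and from 3.94 to 4.35 at GD9.5. The surface ectoderm list did not share its profile. It fell in level at each step, from a range of 3.87 to 3.96 to one of 3.54 to 3.60 and one of 3.12 to 3.26, with 10 of 22 genes lower and 1 higher in the first interval and 13 lower and 0 higher in the second by limma with Benjamini-Hochberg adjustment, where 6.74% and 10.3% of all genes were lower. None of the 11 marker lists for tissues or cell types had its highest mean level at GD9.0. All 25 neural progenitor markers lay above the background at GD9.0, but so did all 23 endoderm and yolk sac markers and 20 of 22 cardiac muscle markers. This count therefore does not tell tissues apart. The mean level of 22 cardiac muscle markers was 4.75, 2.77 and 1.77 over the 3 stages, with 20 lower in the first interval and 17 in the second. That of 23 endoderm and yolk sac markers was 5.56, 3.497 and 2.41, with 20 and 17 lower, against the same shares of all genes. Their part in the 21 profiles was not tested.

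The chaperone gene Hspa1b, which encodes an inducible form of Hsp70, was at 3.85 and 4.02 at GD8.5, at 4.61, 4.67, 4.64 and 4.75 at GD9.0 and at 3.39, 3.22, 3.35 and 3.41 at GD9.5. The stages did not overlap, with GD9.5 the lowest. The means were 3.94 ± 0.11 (SD, n = 2), 4.67 ± 0.059 (n = 4) and 3.34 ± 0.086 (n = 4), a rise of 0.73 and a fall of 1.32 on the log2 scale. Its near-identical neighbour Hspa1a, at a mean of 1.22 at GD9.0, was under the background on its own probe set, and the share of each gene in the signal of the Hspa1b probes is uncertain.

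Of 32 measured immediate early and stress genes, 3 rose and 13 fell in the first interval and 9 rose and 4 fell in the second, where 6.78% of all genes rose and 6.74% fell and then 14.1% rose and 10.3% fell. Hspa1b, chosen for its rise and fall, counts among the 3 that rose and the 4 that then fell. The list's median change was -0.20 and then -0.0031. Dnajb1, the Hsp40 partner of Hsp70, was the only other gene of the list with every GD9.0 array above the others, at means of 7.56, 7.69 and 7.33. Its rise of 0.13 ± 0.061 SE did not pass limma with Benjamini-Hochberg adjustment (adjusted p = 0.217). Its change from GD9.0 to GD9.5 was -0.36 ± 0.050 SE. That change is given without a test, since the separated GD9.0 arrays singled this gene out.

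Enzymes, transporters and organelle proteins made up most of the rest. Rnf152, a ubiquitin ligase of the lysosome that restrains mTORC1 signalling, had the largest rise of the 21, 3.18-fold. It was at 2.47 and 2.49 at GD8.5, at 4.39, 4.26, 3.96 and 3.99 at GD9.0 and at 3.38, 3.50, 3.12 and 3.43 at GD9.5. The stages did not overlap, and GD9.5 stayed above GD8.5.

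Maob, the X-linked monoamine oxidase B of the outer mitochondrial membrane, was at 4.43 and 4.52, then at 5.09, 5.07, 5.18 and 5.11, then at 3.97, 3.86, 4.13 and 3.93. Here GD9.5 fell below GD8.5, after a 1.56-fold rise and a 2.21-fold fall. Car3, a cytosolic carbonic anhydrase, was at 4.96 and 5.14, then at 5.75, 5.78, 5.97 and 5.90, then at 5.28, 5.31, 5.13 and 5.29, with a 1.74-fold rise and a 1.51-fold fall. Spring1, a Golgi protein needed for the activation of the sterol-sensing SREBP factors, was at 3.31 and 2.97, then at 3.57, 3.80, 3.95 and 3.70, then at 2.899, 2.98, 3.39 and 3.09. The SDs within the stages were 0.24, 0.16 and 0.22, and the outer stages overlapped. In the list of sterol and fatty acid synthesis genes, 12 of 21 rose in the first interval and 10 in the second, with 0 and 1 lower, by limma with Benjamini-Hochberg adjustment, where 6.78% of all genes rose and 6.74% fell and then 14.1% rose and 10.3% fell. The list's median change was 0.30 and then 0.18, and none of its genes met the rule.

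Slc15a2, the peptide transporter PEPT2, ranged from 4.81 to 4.88, from 5.43 to 5.56 and from 5.04 to 5.36 over the 3 stages. Mrpl39, a protein of the large mitochondrial ribosomal subunit, ranged from 8.80 to 8.82, from 9.32 to 9.47 and from 8.85 to 8.93. Ankrd26, an ankyrin repeat protein, ranged from 4.64 to 4.91, from 5.30 to 5.48 and from 4.82 to 5.03. Of the noncoding genes, AI506816 was at 5.82 on both GD8.5 arrays and then ranged from 6.51 to 6.59 and from 6.04 to 6.15, and A930013F10Rik from 2.10 to 2.32, from 2.44 to 3.00 and from 2.12 to 2.41. A930013F10Rik had the narrowest gap of all, 0.026, between its lowest GD9.0 array and the highest of the others.

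The size thresholds cut through a continuous range. Just inside were Krt7, Slc15a2 and Sema3d, which fell by 0.34 each after rises of 0.62, 0.66 and 0.59. Just outside were Josd2, with a rise of 0.498 and a fall of 0.52, Mfap2, with a rise of 0.53 and a fall of 0.298, and Stambpl1, with a rise of 0.489 and a fall of 0.61. Ccdc160, Filip1 and Pcdh9 met the sizes, but their GD9.0 arrays overlapped with those of another stage.

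Replicate 3 was the highest of the 4 GD9.0 arrays for 9 of the 21 genes, replicate 4 for 6, replicate 1 for 5 and replicate 2 for 1, against 27.3%, 24.1%, 26.3% and 22.4% of all genes. The median SD of the 21 genes at GD9.0 was 0.083, against 0.10 over all genes. Without GD8.5 replicate 4 the rises of Spring1, Taf15, Gtf3a and Sema3d came to 0.45, 0.41, 0.47 and 0.44, and without GD8.5 replicate 3 that of A930013F10Rik came to 0.48, all under the threshold. Krt7 fell by 0.27 without GD9.5 replicate 1.

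Most members had other probe sets on the array, which read the same RNA at other positions. There were 23 such probe sets for 13 genes, and 17 of them, in 11 genes, also had their highest mean at GD9.0, where 26.9% of all genes do. Of the 8 other probe sets with a mean level of at least 2.5, 7 had their highest mean at GD9.0. They included both for Ankrd26, with rises of 0.52 and 0.73 and falls of 0.68 and 0.73, and that for Cdh6, with a rise of 0.97 and a fall of 1.58. Both other probe sets of Hspa1b, 1 of them with a mean under 2.5, also had their highest mean there, with rises of 0.56 and 0.70 and falls of 0.83 and 1.00. The exception was Taf15, whose second probe set had its lowest mean at GD9.0, with levels of 2.72, 2.44 and 2.72. A second probe set of Spring1 went from 2.66 to 2.35 and 2.26, and the second of Csn3 stayed under the background at 0.97, 0.94 and 0.97. These probe sets come from the same arrays and comparisons that chose the genes, so they are given without a test.

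The stages that the rule did not compare with each other were GD8.5 and GD9.5. Relative to GD8.5, 4 of the 21 genes (19.05%) were higher at GD9.5 and 4 (19.05%) were lower by limma with Benjamini-Hochberg adjustment, where 15.5% of all genes were higher and 13.1% lower, so these shares are near the background. The other 13 genes did not pass, 3 of them with an unadjusted p under 0.05, and the median difference of the 21 was 0.046 against -0.016 over all genes. The arrays of the 2 stages overlapped for 11 genes, while GD9.5 lay above GD8.5 for 6 and below it for 4. The test shares its arrays with the choice of genes, and the larger threshold for the rise than for the fall favours genes that stay higher at GD9.5.

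Rnf152 kept the most of its rise and was 1.84-fold higher at GD9.5 than at GD8.5 (log2 difference 0.88 ± 0.13 SE, limma adjusted p = 0.000413). Dmrta1 was 1.59-fold higher (0.67 ± 0.16, adjusted p = 0.00891). Slc15a2 was 1.24-fold higher (0.32 ± 0.089, adjusted p = 0.0211) and AI506816 1.21-fold (0.27 ± 0.057, adjusted p = 0.00402), and these 2 had falls under 0.5. Without GD8.5 replicate 3, limma gave Dmrta1 an adjusted p of 0.0644 and Slc15a2 one of 0.0703, and without replicate 4 Slc15a2 had 0.142. With all 12 arrays, limma gave AI506816 an adjusted p of 0.350, Dmrta1 one of 0.246 and Slc15a2 one of 0.0670.

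Hspa1b ended lowest, 1.51-fold below GD8.5 (-0.59 ± 0.076 SE, limma adjusted p = 0.000122). Maob was 1.42-fold lower (-0.50 ± 0.077, adjusted p = 0.000481), Cdh6 1.31-fold lower (-0.39 ± 0.077, adjusted p = 0.00259) and Csn3 1.31-fold lower (-0.39 ± 0.10, adjusted p = 0.0168). In limma without GD8.5 replicate 3 Csn3 had an adjusted p of 0.0536, and without replicate 4 one of 0.131. For genes that did not pass, the 95% interval of the difference gives the sizes compatible with these arrays. It ran from -0.21 to 0.21 for Six6, from -0.19 to 0.20 for Uty and from -0.19 to 0.14 for Gtf3a. These intervals are for single genes without adjustment, so their bounds are not a limit of detection. Krt7 was close to the threshold (0.28 ± 0.097, limma adjusted p = 0.0541) and passed it in 5 of 17 alternatives, with adjusted p-values of 0.0123 without GD9.5 replicate 1, 0.0286 without dim genes, 0.0289 after median centring, 0.0436 with a trended, robust prior and 0.0471 with averaged probe sets. Sema3d (0.24 ± 0.11, limma adjusted p = 0.116) passed without GD8.5 replicate 3, with an adjusted p of 0.0426.

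**Figure D3:**
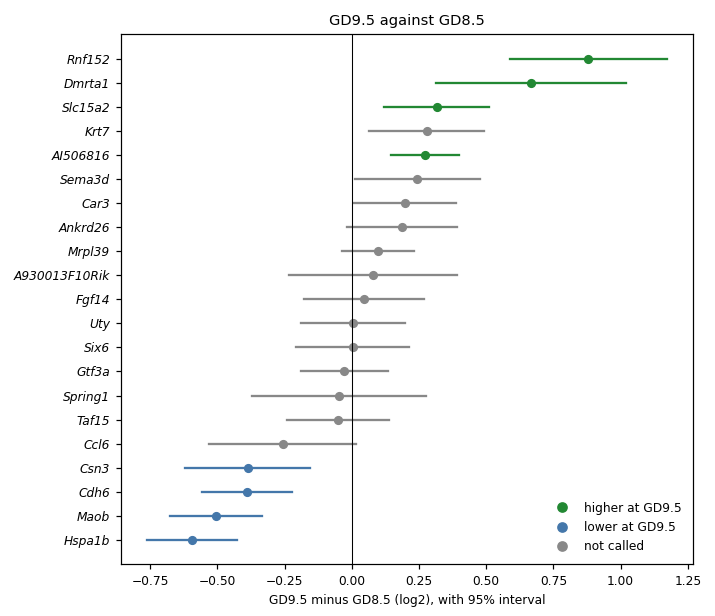
Log2 difference of GD9.5 minus GD8.5 (horizontal axis) for each of the 21 genes, with the 95% interval from the limma fit as a bar; green and blue genes passed Benjamini-Hochberg adjustment at 0.05 and grey genes did not. Values run from -0.59 for Hspa1b to 0.88 for Rnf152, and Krt7, Car3 and Sema3d are grey although their intervals leave out 0, since the adjustment is over all genes.

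GD8.5 replicates 1 and 2 had no part in the choice of genes and give a separate reading of the earlier stage only. The GD9.0 arrays they are set against are the same ones whose high levels chose the genes. A share above that of all genes therefore follows in part from the choice. The counts are given as a description and not as an independent test of the rise. After log2 and quantile normalization of all 12 arrays, GD8.5 replicates 1 and 2 both lay below every GD9.0 array for 16 of the 21 genes (76.2%). The same held for 28.6% of all genes, and for 83.5% of the 436 genes whose mean rose by at least 0.5 on the log2 arrays. Both lay above every GD9.0 array for 22.4% of all genes. The 2 arrays were deposited on another scale than the other 10, and the part of that difference in these counts and levels was not tested. With a mean level of at least 5, 6 of 7 members lay below, against 35.7% of genes at that level. Rnf152 had the widest distance, 1.87 below the GD9.0 mean, followed by Ccl6 (1.09) and Dmrta1 (0.99).

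The 5 genes without that separation were Csn3, Hspa1b, Fgf14, A930013F10Rik and Ankrd26. Their 2 further GD8.5 arrays averaged 0.22, 0.11, 0.10 and 0.14 below the GD9.0 mean for Csn3, Hspa1b, A930013F10Rik and Ankrd26, and 0.081 above it for Fgf14. Ankrd26 was at 5.96 and 6.03, against a lowest GD9.0 array of 6.02 in the same normalization. When the rule was applied to all 12 arrays, 13 of the 21 genes met it. The other 8 were these 5 together with Maob, Taf15 and Uty, whose rises came to 0.46, 0.41 and 0.38.

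**Figure D4:**
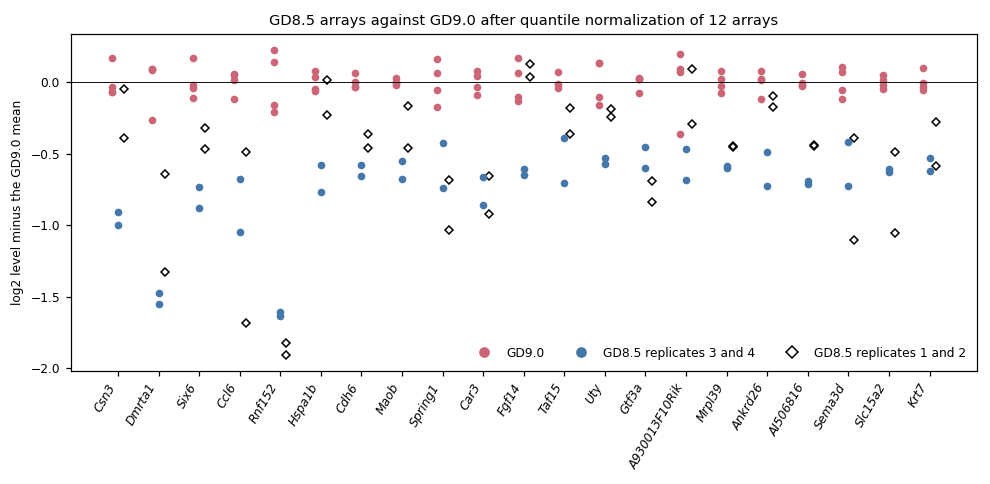
Log2 level minus the GD9.0 mean of the gene (vertical axis) for the 21 genes (horizontal axis) after quantile normalization of all 12 arrays; red points are the 4 GD9.0 arrays, blue points GD8.5 replicates 3 and 4, and open diamonds GD8.5 replicates 1 and 2, which the choice of genes did not use. The diamonds lie below all red points for 16 genes, furthest for Rnf152, and among the red points for Fgf14.

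Measures of RNA and of the array reaction also had an extreme at GD9.0. For 18S rRNA, the mean of 3 control probe sets was 9.82 ± 0.0084 in the earliest stage (SD, n = 2), 8.81 ± 0.18 in the middle one (n = 4) and 10.28 ± 0.085 in the last (n = 4). For actin, the signal at the 3′ end exceeded that at the 5′ end, a gap that widens with RNA breakdown, by 0.71 ± 0.015, 0.56 ± 0.026 and 0.93 ± 0.026. For Gapdh the same gap was 0.039 ± 0.0070, -0.00095 ± 0.013 and 0.049 ± 0.028. Each of these was lower at GD9.0 than at GD9.5 (two-sided exact permutation test, p = 0.0286 for each of the 3, the smallest that 4 against 4 arrays can give, and 0.0286 after Benjamini-Hochberg adjustment over the 3). These controls have the mirror image of the profile by which the 21 genes were chosen, and their part in it was not tested.

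**Figure D5:**
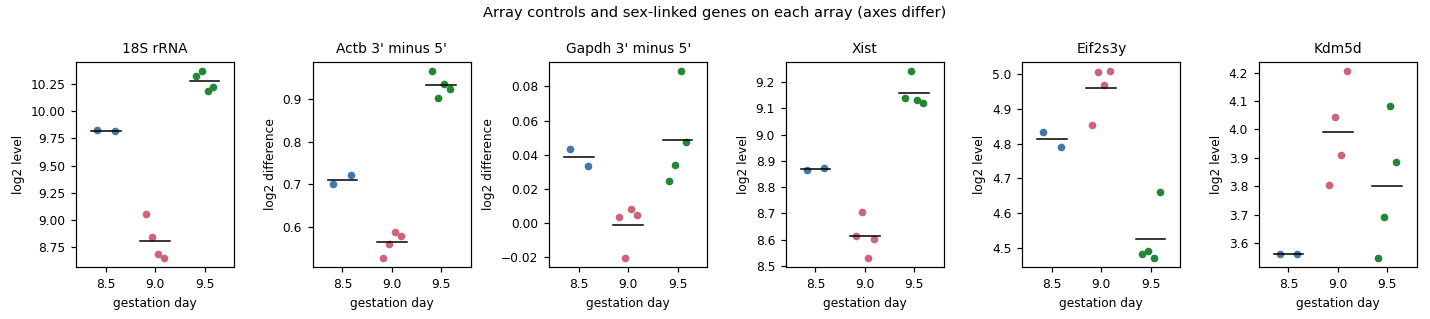
Level or 3′ minus 5′ difference (vertical axes, log2, each with its own range) of 3 array controls and 3 sex-linked genes on each array of the 3 stages (horizontal axis); points are arrays and bars are stage means. The 18S, actin, Gapdh and Xist values are lowest at GD9.0, and those of the Y-linked genes Eif2s3y and Kdm5d have their highest mean there.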

How the data were processed

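Biotin-labelled cDNA made from total RNA of dissected neural tubes was measured on Affymetrix whole-genome mouse arrays, per the labels. RMA, GCRMA and version 1.2.1 of Affymetrix Expression Console are in the submitters' processing notes, with nothing to say which of them made which values; the annotation build is likewise not stated there. The authors deposited 10 arrays as log2 values already normalized across arrays (their sorted values differ by at most 0.27) and GD8.5 replicates 1 and 2 as intensities on a linear scale. The log base was taken as 2 from the values. Of 45101 probe sets, 34945 named 1 gene in the platform annotation, 932 several and 9160 none, and 64 were controls. Each gene took its brightest probe set, which gave 18193 genes, 18032 of them with an identifier in the RefSeq table used for names and promoters.

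The members, gene lists and tests were chosen with earlier results of these data known. With 21 members, every one is named. Values on every array are given for the 12 with the largest peak height (the smaller of rise and fall) and for up to 2 members of each list; genes named beside them from the lists were chosen after their values were seen. limma 3.58.1 in R 4.3.3 fitted a mean per stage to the 10 log2 arrays (7 residual degrees of freedom, prior 3.86), with Benjamini-Hochberg adjustment over 18193 genes at 0.05. On simulated data for GD9.5 minus GD8.5 over 18193 genes it recovered 78% of genes changed 1.5-fold and 97% of those changed 2-fold, with 6 false calls. That simulation had independent normal noise, 100 changed genes per size and all other genes flat. In the real data 15.5% of genes were called higher and 13.1% lower, so the simulated rates need not hold there. The number of arrays limits the precision. Alternatives were other scalings, probe set rules, variance models, a replicate block and leaving out each array.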

Additional observations from a re-analysis of the deposited data

Results flagged for a closer look

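In 4 of 42 groups of 4 arrays (21 genes at GD9.0 and at GD9.5), 1 array stood apart from the other 3 by more than Dixon's 95% critical value for 4 samples. Chance alone marks about 1 in 20 groups in this way. GD9.0 replicate 3 read 3.08 for Csn3, against 2.81 to 2.84 on the other arrays of that stage. GD9.0 replicate 1 read 4.34 for Dmrta1, against 4.69 to 4.75. GD9.5 replicate 1 read 4.79 for Cdh6, against 4.99 to 5.02, and GD9.5 replicate 3 read 5.13 for Car3, against 5.28 to 5.31.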

How the results depend on the processing

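The number of genes that met the rule was 21 in the 10 log2 arrays. It was 40 with all 12 arrays after log2 and quantile normalization, 13 of them shared with the 21, and 12 with the probe sets of each gene averaged, 11 of them shared. The cause was not tested, beyond the other probe sets described for the members. Leaving out 1 array gave 21 to 29 genes. Other settings (median centring, no shared probe sets, no minimum level, no separation of arrays, both differences at least 0.5) gave 15 to 24. The count higher at GD9.5 than at GD8.5 was 4, and 1 with 12 arrays, where limma with Benjamini-Hochberg adjustment gave Dmrta1 an adjusted p of 0.246, AI506816 one of 0.350 and Slc15a2 one of 0.0670. With averaged probe sets, Csn3 had 0.0516 and Slc15a2 had 0.594 by the same test. In the other settings it was 3 to 5, and the count lower at GD9.5 was 3 or 4. The 16 genes below GD9.0 in the 2 linear GD8.5 arrays became 19 with a loess scaling and 6 among the 7 with a mean level of at least 5, a smaller set by construction. The replicate block left both counts at 4 and 4. Nothing in the labels says that equal numbers pair samples, and deviations of equal numbers at GD9.0 and GD9.5 correlated at -0.022, 0.10, 0.036 and 0.023. The comparison of the outer stages rests on 2 arrays at GD8.5.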

Other observations

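Mitosis genes leaned towards GD9.0 without meeting the rule. Of 28 measured genes of the list, 6 had every GD9.0 array above every other log2 array, against 3.4% of all genes. Of the same 28, 12 had their highest mean at GD9.0, where 26.9% of all genes do. The list was one of 35 examined and was singled out after its values were seen. The 6 genes were Bub1 and Ttk, kinases of the spindle checkpoint, Mad2l1, its inhibitor of anaphase, Cenpe and Cenpf, of the kinetochore, and Kif11, the spindle motor Eg5. Their steps were small. Cenpf had means of 8.05, 8.38 and 8.22 over the 3 stages and Cenpe means of 7.29, 7.59 and 7.38. By limma with Benjamini-Hochberg adjustment, 8 genes of the list rose and 0 fell from GD8.5 to GD9.0, where 6.78% and 6.74% of all genes did, and 2 rose and 6 fell from GD9.0 to GD9.5, where 14.1% and 10.3% did. The list's median change was 0.13 and then -0.084. In the list of DNA replication genes, 1 of 34 had every GD9.0 array above the others.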
